A study of Mus musculus with 8 samples.

Results

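The 10 Bcl2 family genes described here, of 39017 genes in the count table, were read in cells of the cochlear nucleus, the first relay of the auditory pathway, from mouse embryos at E18.5. The members were taken by symbol: the survival genes Bcl2, Bcl2l1 and Mcl1, the pore-forming effector genes Bax and Bak1, and the BH3-only genes Bad, Bid, Bbc3, Bcl2l11 and Hrk. All 10 were in the table and all 10 passed the filter on low counts. Both groups were C57BL/6 and carried Math1::Cre with Rosa tdTomato, so that cells in which Math1 (Atoh1) had switched on Cre fluoresced and were sorted. The 4 wild type samples were titled with no further allele, and the 4 mutant samples were titled Hoxa2+/fl; Hoxb2fl/fl, whereas the series' design text gives both conditional alleles as homozygous. Each sample held 30000 sorted cells from 3 pooled littermates, and every pool came from a different dam. Recombination was limited to cells with a history of Math1::Cre, and the libraries were named by group and heading number, mutant 1 to 4 and wild type 5 to 8.

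Bcl2 family proteins decide whether the outer mitochondrial membrane stays intact. Bax and Bak proteins oligomerise to open it and release cytochrome c, survival members such as Bcl2, Bcl-xL (from Bcl2l1) and Mcl1 hold them in check, and BH3-only proteins insert a short helix, the BH3 domain, into a groove of the survival proteins or activate Bax and Bak directly. In the developing nervous system this pathway removes surplus neurons. Its BH3-only members are switched on in turn by loss of trophic support, DNA damage or changes in phosphorylation. Much of this control acts on the proteins, which were not measured here.

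The BH3 domain is the sequence that the 10 members share, and its coding stretch is shown because it is what places these genes in one family. Each line gives 36 bases of the annotated coding sequence, from 5′ to 3′ on the gene's own strand, with 3 codons on each side of the 6-codon core. Capitals mark the codon of the conserved leucine and the last 2 codons of the core, for a small residue and aspartate.
Bcl2: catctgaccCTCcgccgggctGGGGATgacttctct
Bcl2l1: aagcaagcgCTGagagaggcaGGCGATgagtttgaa
Mcl1: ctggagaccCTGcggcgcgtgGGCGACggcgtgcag
Bax: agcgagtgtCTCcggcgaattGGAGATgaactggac
Bak1: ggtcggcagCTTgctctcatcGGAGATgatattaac
Bad: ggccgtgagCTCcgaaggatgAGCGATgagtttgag
Bid: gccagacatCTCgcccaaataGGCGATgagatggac
Bbc3: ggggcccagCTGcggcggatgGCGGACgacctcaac
Bcl2l11: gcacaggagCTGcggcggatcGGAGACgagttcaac
Hrk: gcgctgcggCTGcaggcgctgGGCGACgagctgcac

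The core was found once in each member by a search for leucine, 3 residues of any kind, glycine, alanine or serine, and then aspartate. The fifth codon read glycine in 8 members, serine in Bad and alanine in Bbc3. The pattern is loose, since 33.6% of 21725 annotated proteins held it at least once, and a match is a description only. In mm10 the stretches lay within single exons, at chr1:106712575-106712610 for Bcl2 (exon 1 of 2, minus strand), chr2:152829697-152829732 for Bcl2l1 (exon 2 of 3, minus strand) and chr3:95659427-95659462 for Mcl1 (exon 1 of 3, plus strand). Those of the effectors were at chr7:45465997-45466032 for Bax (exon 3 of 6) and chr17:27022531-27022566 for Bak1 (exon 4 of 6), both on the minus strand. Among BH3-only genes they were at chr19:6950783-6950818 for Bad (exon 3 of 4), chr6:120897289-120897324 for Bid (exon 4 of 6, minus strand), chr7:16313764-16313799 for Bbc3 (exon 3 of 4), chr2:128147141-128147176 for Bcl2l11 (exon 3 of 4) and chr5:118169882-118169917 for Hrk (exon 1 of 2). Counts were per gene, so long and short splice forms of Bcl2l1, Mcl1 or Bcl2l11, which can differ in function, were not separated.

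Libraries held between 24789043 and 51118195 counts, and a member had between 143 counts (Bak1 in wild type 6) and 8324 counts (Mcl1 in wild type 5) in a library. Hoxb2 fell in the mutant libraries (log2 fold change -3.00, SE 0.199, edgeR adjusted p = 3.76e-05), whereas Hoxa2 did not pass (-0.70, SE 0.401, edgeR adjusted p = 0.506). Of the Atoh1-lineage markers all 10 were detected in every library, with Atoh1 itself between 28.5 and 154 CPM (the usual count unit scaled to library size, here with TMM factors). Cycling-cell markers summed to 605 CPM in mutant 1, 833 in wild type 5 and 802 in wild type 6, and to between 169 and 313 CPM in the other 5 libraries. Of 11 marker lists for cell types and states, none had summed levels that separated the groups. Of the 51 markers tested, Nhlh1 (Atoh1 lineage, log2 fold change -0.95) and C1qa (microglia, -3.45) fell and none rose. C1qa was at 0.108 to 0.35 CPM among mutants and 0.858 to 3.65 CPM among controls, without overlap. Csf1r, with a log2 fold change of 0.07, held a large part of the microglial sum. It was at 9.81 to 15.2 CPM among mutants and 10.1 to 11.6 CPM among controls. The overlap of the microglial sums therefore does not show equal microglial content. Microglial markers ranged from 10.8 to 16.7 CPM in sum among mutants (14.5 to 21.0 among controls). Those of inhibitory neurons ranged from 44.2 to 102 CPM (30.5 to 57.9 among controls). Erythroid markers summed to 5.13 to 6.91 CPM among mutants and 4.63 to 10.6 CPM among controls. Of these, the globin genes Hba-a1 and Hba-a2 were at 0 in all 8 libraries. In sorted bulk samples, fewer cells of a type and less RNA per cell cannot be told apart.

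Per gene length, Mcl1 was the most abundant member and Bcl2l11 the least, with a mean RPKM (CPM per kilobase of the listed gene length) of 55.1 ± 5.78 and 1.91 ± 0.237 in wild type (SD, n = 4). Bax came second at 19.9 ± 1.77 RPKM, well above the other effector Bak1 at 3.39 ± 0.731 RPKM. Bcl2l1 followed at 10.07 ± 1.52, Bid at 8.59 ± 0.938 and Bcl2 at 6.11 ± 0.913 RPKM, so that of the survival genes Bcl2 had the lowest level. The remaining BH3-only genes were lower, Bad at 4.27 ± 0.612, Bbc3 at 3.84 ± 0.245 and Hrk at 3.46 ± 0.816 RPKM. By CPM the wild type order differed, with Bax at 17.3 below Bcl2l1 at 46.2 and Bcl2 at 43.9. Bcl2l11 at 15.3 CPM was above Bak1 at 8.15 CPM. The RPKM order, and the survival to effector ratio given below, thus depend on the listed lengths, from 869 bases (Bax) to 8029 bases (Bcl2l11).

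Not every step in the RPKM order exceeded the spread between libraries. The wild type ranges of Mcl1, Bax and Bcl2l1 did not overlap, nor did those of Bcl2 and Bad or of Bak1 and Bcl2l11. The ranges of Bcl2l1 and Bid overlapped, as did those of Bid and Bcl2, although Bcl2l1 was above Bid, and Bid above Bcl2, in each of the 4 wild type libraries. Bad, Bbc3, Hrk and Bak1 overlapped each with the next, and Hrk was above Bak1 in only 2 of 4. In mutant libraries Bid at 9.09 ± 1.74 RPKM stood above Bcl2l1 at 8.86 ± 0.219 RPKM (SD, n = 4), and Bak1 at 3.13 ± 0.883 above Hrk at 2.35 ± 0.425 RPKM. Both pairs had overlapping ranges there. The first and last places were the same in both groups. In mutant libraries, however, the ranges of Hrk and Bcl2l11 overlapped, although Hrk was above Bcl2l11 in each of the 4.

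**Figure D1:**
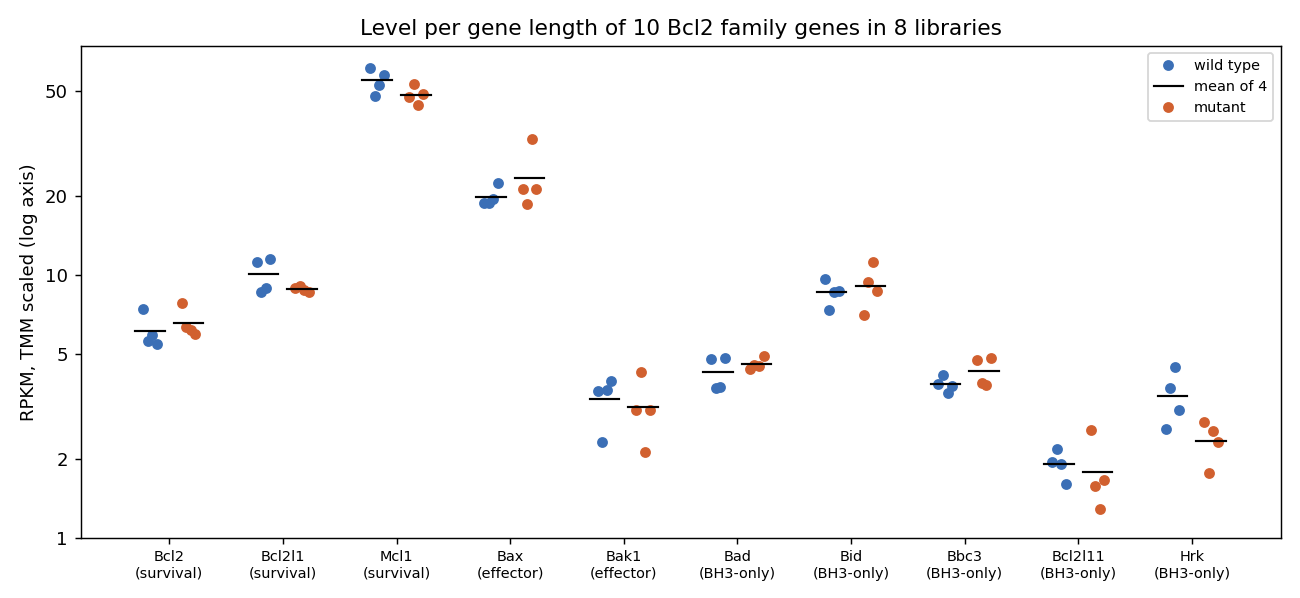
Level of each of the 10 genes in RPKM (log axis), by role; points are single libraries, 4 wild type (blue) and 4 mutant (orange), and black lines are group means. By group mean Mcl1 lies highest and Bcl2l11 lowest, and for every gene the points of the groups overlap.

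None of the 10 members passed the test between mutant and wild type libraries (edgeR, Benjamini-Hochberg adjusted p below 0.05), where 0.359% of the 19494 tested genes passed. The count was also 0 by DESeq2 and by limma-voom, with or without quality weights. At an unadjusted edgeR p below 0.05 there was 1 member, Hrk, which was lower, against 12.5% of tested genes in either direction, 5.29% lower and 7.22% higher. No member had groups that did not overlap, which 6.17% of tested genes had. Without the 3 libraries with the highest cycling-cell markers 3 members did not overlap (Bcl2, Bbc3 and Hrk, against 27.6% of tested genes), and still none passed. Log2 fold changes were positive for 5 members and negative for 5, with a median of -0.01, the same to this precision as the median of all tested genes, and the median size of the change was 0.15 against 0.20 over all tested genes.

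**Figure D2:**
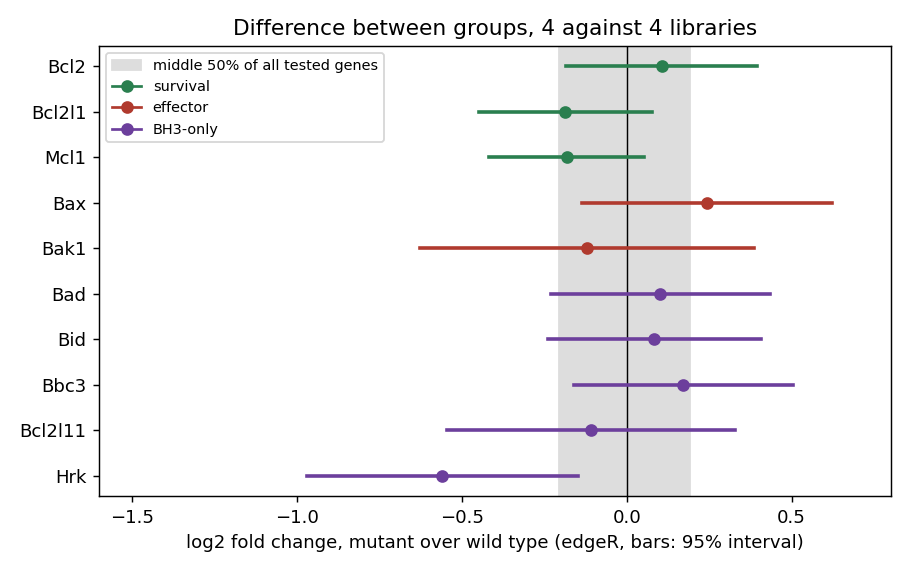
Log2 fold change of mutant over wild type (points) with its 95% interval (bars) for the 10 genes, colored by role; the grey band is the interquartile range of all tested genes. The interval of Hrk lies below 0 before adjustment for the number of genes tested, and the other 9 intervals include 0.

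Among the survival genes, Mcl1 (ENSMUSG00000038612, chromosome 3, 95658788 to 95663176, plus strand), which encodes a rapidly degraded protein on which many neural progenitors depend, was at 214, 168, 184 and 202 CPM in wild type 5 to 8. Mutant 1 to 4 had 166, 186, 155 and 170.1 CPM. The 3 lowest libraries included mutants 1 and 3 but also wild type 6, and mutant 2 lay above wild type 6 and 7. The means were 192 ± 20.1 and 169 ± 13.03 CPM (SD, n = 4), which gave -0.18 as log2 fold change (SE 0.108, edgeR adjusted p = 0.505). The 95% interval of the fold change ran from 0.749 to 1.04, so that a fall to below 0.749 of the wild type level lies outside it.

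Bcl2l1 (ENSMUSG00000007659, chromosome 2, 152780668 to 152831728, minus strand), whose long form keeps young postmitotic neurons alive, had a narrower range among mutant than among wild type libraries. Its levels were 51.5, 39.4, 41.0 and 52.8 CPM in wild type 5 to 8, against 41.1, 41.8, 40.1 and 39.5 CPM in mutant 1 to 4. Wild type 5 and 8 stood apart at the top, and the other 2 wild type libraries fell among or below the mutant ones. The coefficient of variation was 15.1% in wild type and 2.47% in mutant libraries, a difference that was not tested. Between the groups the log2 fold change was -0.19 (SE 0.12, edgeR adjusted p = 0.538), with a 95% interval from -0.45 to 0.08.

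Bcl2 (ENSMUSG00000057329, chromosome 1, 106538178 to 106714274, minus strand), the survival gene after which the family is named, went the other way in sign. It was at 53.6, 40.5, 42.5 and 39.2 CPM in wild type 5 to 8, against 56.3, 45.7, 44.4 and 42.8 CPM in mutant 1 to 4. The highest library of each group was mutant 1 and wild type 5, both with high cycling-cell markers, whereas wild type 6, with markers as high, was among the lowest. Whether those cells had a part in it was not tested. Its log2 fold change was 0.11 (SE 0.133, edgeR adjusted p = 0.759, 95% interval -0.18 to 0.40). Bcl2 shares 558 exonic bases with the antisense gene D630008O14Rik, with means of 6.57 (wild type) and 6.15 CPM (mutant), and without strand those reads cannot be divided between the genes.

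Of the effectors, Bax (ENSMUSG00000003873, chromosome 7, 45461697 to 45466898, minus strand) had the largest positive log2 fold change of the 10 members, and it rested on 1 library. Levels were 16.3, 16.3, 16.99 and 19.5 CPM in wild type 5 to 8, against 18.47, 16.2, 28.6 and 18.4 CPM in mutant 1 to 4. Mutant 3 alone lay above the wild type range, and mutant 2 was the lowest of all 8. The log2 fold change was 0.24 (SE 0.174, edgeR adjusted p = 0.58) and 0.035 without mutant 3. In mutant 3, genes of at least 5092 bases had a median log2 deviation of -0.09 from their mean over libraries, and genes of at most 1552 bases one of 0.05; these lengths are the upper and lower quartile. Bax has a listed length of 869 bases, and the part of length in its value was not tested.

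Bak1 (ENSMUSG00000057789, chromosome 17, 27019810 to 27029009, minus strand), the second effector, was at 8.71, 5.57, 8.81 and 9.52 CPM in wild type 5 to 8, against 7.40, 10.3, 5.09 and 7.40 CPM in mutant 1 to 4. Here mutant 3 was the lowest library and mutant 2 the highest, opposite to Bax in both. For Bak1 the log2 fold change was -0.12 (SE 0.232, edgeR adjusted p = 0.859), and its sign turned to 0.030 without mutant 3. Its interval was the widest of the 10, from a fold of 0.648 to 1.31. Bak1 shares 437 exonic bases with Ggnbp1 on the opposite strand, which had -0.11 for the same quantity (SE 0.139, edgeR adjusted p = 0.758).

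Hrk (ENSMUSG00000046607, chromosome 5, 118164648 to 118189478, plus strand), a BH3-only gene of neurons known to be induced when trophic factors are withdrawn, had the largest difference of the 10. It was at 14.7, 21.0, 25.4 and 17.4 CPM in wild type 5 to 8, against 15.6, 10.04, 14.5 and 13.1 CPM in mutant 1 to 4. Only wild type 5 lay within the mutant range, below mutant 1. The means were 19.7 ± 4.63 and 13.3 ± 2.41 CPM (SD, n = 4), which gave -0.56 as log2 fold change (SE 0.189), with an unadjusted p of 0.0119 and an edgeR adjusted p = 0.274 that missed the threshold. The 95% interval, not adjusted for the number of genes, ran from a fold of 0.51 to 0.903. As only wild type 5 and mutant 1 crossed, the groups of Hrk necessarily did not overlap once either was left out, which adds no evidence. The same held for 17.3% of tested genes without mutant 1 and 7.38% without wild type 5. The edgeR adjusted p of Hrk was 0.11 and 0.326 in those sets. Without wild type 5 the groups of Bcl2 did not overlap either. Over 18 alternative settings the log2 fold change stayed between -0.76 and -0.41, and the adjusted p between 0.11 and 0.501.

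Bid (ENSMUSG00000004446, chromosome 6, 120891930 to 120916853, minus strand), which caspase 8 cleaves to carry death receptor signals to mitochondria, was the most abundant BH3-only member per length. Its levels were 34.3, 26.2, 30.5 and 30.9 CPM in wild type 5 to 8, against 25.01, 33.4, 39.9 and 30.8 CPM in mutant 1 to 4. Mutant 3 was again the highest and mutant 1 the lowest of all 8. The log2 fold change was 0.08 (SE 0.148, edgeR adjusted p = 0.845) and turned to -0.037 without mutant 3. Bid shares 628 exonic bases with Bcl2l13 on the opposite strand, a family member with means of 93.0 (wild type) and 87.2 CPM (mutant), and strand was not stated.

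Bcl2l11 (ENSMUSG00000027381, chromosome 2, 128126038 to 128162547, plus strand) encodes Bim, a strong activator of Bax that Foxo3 and Jun are known to induce. It stood at 15.6, 17.5, 15.3 and 12.9 CPM in wild type 5 to 8, against 20.6, 12.7, 10.3 and 13.3 CPM in mutant 1 to 4. Mutant 1 was the highest and mutant 3 the lowest library, so the mutant group spread over a wider range than the wild type one (coefficient of variation 31.3% and 12.4%). Mutant 1 and wild type 6, the highest of each group, also had the highest summed markers of the response to dissociation, such as Fos. These summed to 283 and 287 CPM there, and to between 73.7 and 166 CPM in the other libraries. Whether dissociation had a part in the Bcl2l11 levels was not tested. The log2 fold change was -0.11 (SE 0.20, edgeR adjusted p = 0.852), and 0.024 without mutant 3.

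Bbc3 (ENSMUSG00000002083, chromosome 7, 16308393 to 16318205, plus strand) encodes Puma, a direct target of p53. Its wild type levels were 7.76, 8.33, 7.15 and 7.57 CPM, against 9.56, 7.80, 7.67 and 9.67 CPM in mutant libraries. Mutants 1 and 4 lay above the wild type range and mutants 2 and 3 within it. Over the groups the log2 fold change was 0.17 (SE 0.153, edgeR adjusted p = 0.659, 95% interval -0.16 to 0.50).

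Bad (ENSMUSG00000024959, chromosome 19, 6941861 to 6951899, plus strand), which is inactive while survival kinases keep it phosphorylated and bound to 14-3-3 proteins, was at 9.61, 7.48, 7.55 and 9.67 CPM in wild type. The mutant levels were 8.81, 9.14, 9.03 and 9.88 CPM. Wild type libraries fell into a higher and a lower pair, and 3 of the 4 mutant libraries lay between them. The log2 fold change was 0.10 (SE 0.152, edgeR adjusted p = 0.806). Bad shares 524 exonic bases with Gpr137 on the opposite strand, which had -0.09 for the same quantity (SE 0.14, edgeR adjusted p = 0.815).

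**Figure D3:**
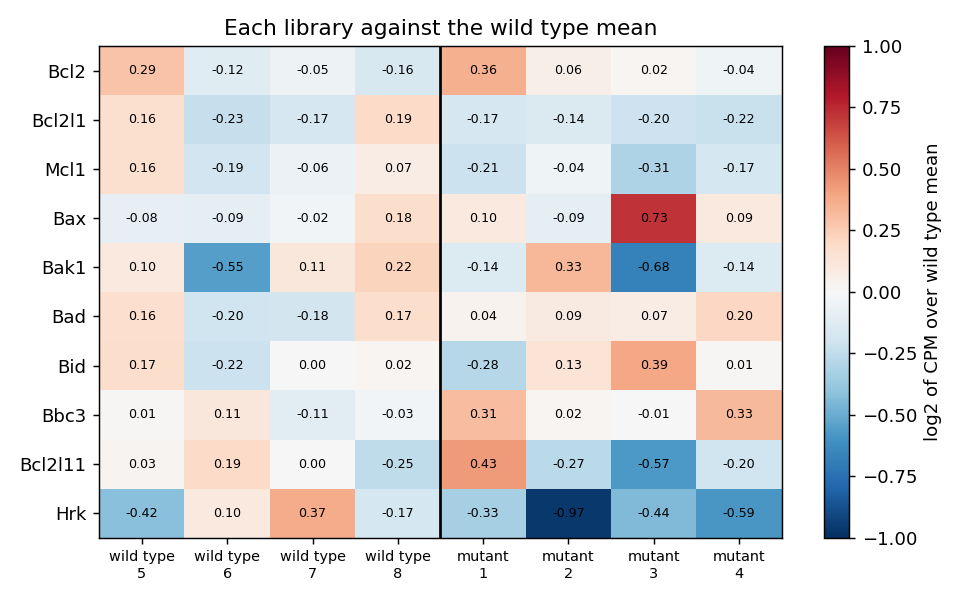
Log2 of each library's CPM over the mean of the 4 wild type libraries, for the 10 genes (rows) and 8 libraries (columns), with the value in each cell and red for higher levels. Mutant 3 has the highest value of the 8 for Bax and Bid and the lowest for Mcl1, Bak1 and Bcl2l11, and Hrk is below 0 in all 4 mutant libraries.

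Read over libraries, mutant 3 was the highest or lowest of the 8 for 5 of the 10 members, and any other library for at most 3. This was not counted over all tested genes, so it is not shown to be particular to the members. Mutant 3 was also the deepest library. The members did not move together within it: Bax and Bid were high, and Mcl1, Bak1 and Bcl2l11 were low.

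The balance of survival to effector transcripts was described by the summed RPKM of Bcl2, Bcl2l1 and Mcl1 over that of Bax and Bak1. The ratio was 3.57, 2.97, 2.92 and 2.83 in wild type 5 to 8, against 2.64, 3.00, 1.70 and 2.61 for mutant 1 to 4. By RPKM, survival transcripts thus exceeded effector transcripts in all 8 libraries, which rested on Mcl1. Bcl2 and Bcl2l1 together lay below the effector sum in every library, as in wild type 5 (7.45 and 11.2 against 22.4 RPKM). That part of Mcl1 depended on the listed lengths. By CPM, Bcl2 alone at 39.2 to 56.3 lay above Bax at 16.2 to 28.6 and Bak1 at 5.09 to 10.3. For the ratio, 3 mutant libraries lay below the wild type range while mutant 2 lay within it. On the log2 scale the means were 1.61 ± 0.152 and 1.28 ± 0.359 (SD, n = 4), a difference of -0.33 that shrank to -0.16 without mutant 3. As a score over the chosen members the ratio was given no test. With Bcl2 over Bax alone the difference was -0.10 on the log2 scale, with a pooled SD of 0.369.

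**Figure D4:**
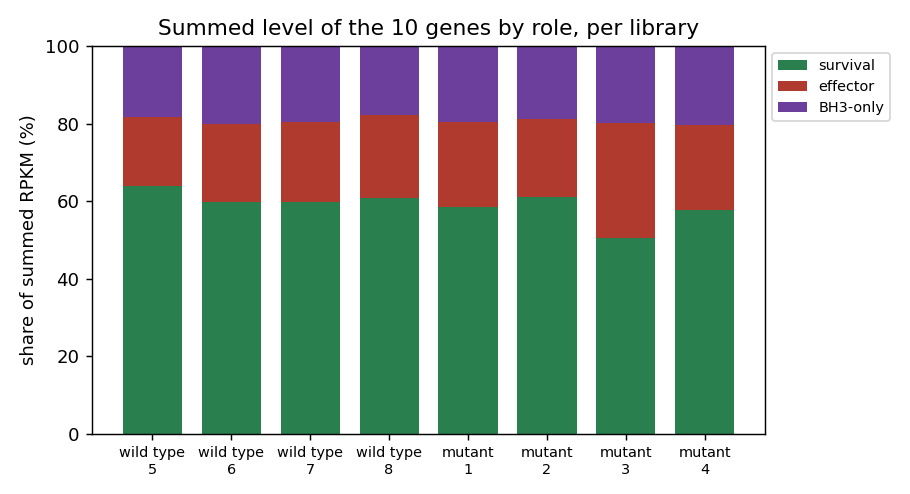
Share of the summed RPKM of the 10 genes that belongs to survival, effector and BH3-only members in each library, as percent on the vertical axis. Survival members take 59.7% to 63.9% of the wild type sums and 50.4% to 60.9% of the mutant ones, and mutant 3 has the lowest share.

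Survival members made up 50.4% to 63.9% of the summed RPKM of the 10 genes over all libraries. Mcl1 alone made up 37.7% to 49.0%, more than the BH3-only members together, at 17.8% to 20.3%. Of the 3 roles, the BH3-only members had the share with the narrowest range over libraries.

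Of 15 further family genes listed, 13 were in the table and 10 were tested, of which none rose or fell by edgeR. Of the 10, 1 had an unadjusted edgeR p below 0.05, against 12.5% of all tested genes. The median log2 fold change of the 10 was -0.05. Per length the mitophagy receptor Bnip3l was the highest at 52.5 ± 4.75 RPKM in wild type, followed by Bnip3 at 14.7 ± 2.59, Bcl2l13 at 13.4 ± 1.18, the effector-like Bok at 11.1 ± 1.91 and the survival gene Bcl2l2 (Bcl-w) at 6.77 ± 0.927 RPKM (SD, n = 4). Bcl2l2 thus lay close to Bcl2, and Bok above Bak1. The BH3-only gene Bmf was at 1.39 ± 0.208 and Bik at 0.487 ± 0.175 RPKM. Pmaip1, the BH3-only gene of Noxa, had 2 to 21 counts a library and was not tested, nor were Bcl2l10 with 0 to 12 counts and Bcl2a1b with 0 to 3. The log2 fold change of Bnip3 was 0.40 (SE 0.174, edgeR adjusted p = 0.374) and that of the little expressed Bcl2l15 -0.70 (SE 0.355, edgeR adjusted p = 0.443).

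Downstream of mitochondria, none of 20 apoptosome, caspase and inhibitor genes passed by edgeR. A single gene was below 0.05 unadjusted, against 12.5% of all tested genes. Of the 20 genes, 5 had a positive log2 fold change. Their median was -0.12, beside -0.01 over all tested genes, of which 48.4% were positive. Casp9 of the apoptosome was at 4.66 ± 0.511 RPKM in wild type and its scaffold Apaf1 at 3.84 ± 0.389 RPKM (SD, n = 4). The caspase inhibitor Xiap was at 10.3 ± 0.331 and 10.02 ± 0.309 RPKM in the 2 groups. The smallest p was that of Aifm1, a mitochondrial flavoprotein, with 34.7 ± 3.93 (wild type) and 28.3 ± 3.95 CPM (mutant; log2 fold change -0.30, SE 0.131, edgeR adjusted p = 0.385).

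Of 11 tested death receptor and adaptor genes none passed by edgeR, and 3 had an unadjusted p below 0.05, all lower, against 5.29% of all tested genes that were lower and 12.5% in either direction. Tnfrsf1a, a receptor for tumour necrosis factor, stood at -0.76 in log2 fold change (SE 0.281, edgeR adjusted p = 0.303). Tnfrsf10b, a receptor for Trail, had -0.82 (SE 0.339, edgeR adjusted p = 0.351), with groups that did not overlap, as held for 6.17% of tested genes. The third, Ripk1, a kinase of these receptors' signalling named after its values were seen, had -0.51 (SE 0.214, edgeR adjusted p = 0.36). Both receptors were low, at 2.04 ± 0.62 and 0.87 ± 0.184 CPM in wild type (SD, n = 4).

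None of 16 p53 pathway genes passed by edgeR, and 3 had an unadjusted p below 0.05 (2 higher and 1 lower), beside 12.5% of all tested genes. Perp, a membrane protein and p53 target, was the nearest to the threshold. It was at 3.65, 2.88, 4.89 and 5.16 CPM in wild type 5 to 8, against 5.60, 7.92, 14.3 and 7.78 CPM in mutant 1 to 4. The groups of Perp did not overlap, as held for 6.17% of tested genes, and mutant 3 was again far above the others. Its log2 fold change was 1.10 (SE 0.289, edgeR adjusted p = 0.151), and it passed with DESeq2 (adjusted p = 0.0124) and without mutant 1 (edgeR adjusted p = 0.0296). In those settings 497 and 544 of all genes passed, against 70 in the main fit. Perp passed in no other setting. Over the alternatives its log2 fold change lay between 0.77 and 1.27, and its adjusted p reached 0.443. Phlda3, another p53 target, had 0.81 (SE 0.352, edgeR adjusted p = 0.376) at a mean of 1.04 CPM in mutant libraries. The lower gene was Trp73, which encodes the p53 relative p73 and was named after its values were seen, at -1.18 (SE 0.518, edgeR adjusted p = 0.377) and 0.969 ± 0.486 CPM in wild type (SD, n = 4), with overlapping groups. Trp53 itself, at 11.9 ± 2.32 RPKM in wild type and 9.83 ± 2.16 RPKM in mutant libraries (SD, n = 4), and Mdm2, at 18.4 ± 0.922 and 17.7 ± 0.767 RPKM, did not pass.

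Among 23 upstream regulators and binding partners none passed by edgeR, and the median log2 fold change was 0.05. A single gene was below 0.05 unadjusted, against 12.5% of all tested genes. That gene was Foxo3, a transcription factor of Bcl2l11, with 69.6 ± 5.81 (wild type) and 88.9 ± 15.2 CPM (mutant; log2 fold change 0.35, SE 0.13, edgeR adjusted p = 0.303). Mapk9, a Jun kinase gene, had 0.26 (SE 0.135, edgeR adjusted p = 0.455).

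**Figure D5:**
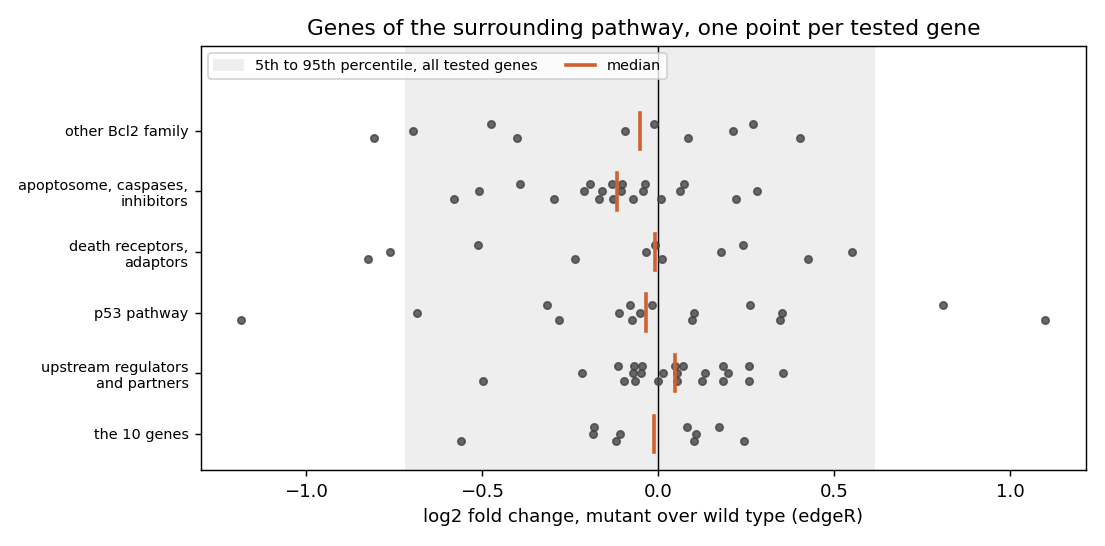
Log2 fold change of mutant over wild type for each tested gene of the surrounding lists and of the 10 family genes (points), with list medians (orange); grey marks the 5th to 95th percentile of all tested genes. Medians lie between -0.12 and 0.05, and single genes outside the grey band are found in the other Bcl2 family, death receptor and p53 lists.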

How the data were processed

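The single table that the authors deposited holds unnormalised counts for Ensembl genes and, per the file headers, a width in bases. The submitters' processing notes name mm10 and bcl2fastq 1.8.4. Which aligner, counter, strand setting and annotation release were used was not given in the sources. Column headings show the group but not the replicate number of the sample titles, so columns were assigned to groups only. No pair of libraries agreed within sampling noise (lowest chi-square per gene 18.2).

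Counts were filtered by filterByExpr, scaled by TMM and tested with edgeR 4.0.16 (R 4.3.3), quasi-likelihood F test with robust fit, no covariate, Benjamini-Hochberg adjustment over all 19494 genes and a threshold of 0.05. SE is |log2 fold change| / sqrt(F), and 95% intervals use the t quantile of the fitted degrees of freedom. Both are approximate. CPM and RPKM use TMM-scaled totals and the listed width. DESeq2 1.42.0, limma 3.58.1, other scalings and filters and omission of each library were alternatives. Positions, exons and coding sequences are those of GENCODE M21 on mm10. All members were named, and from each other list the genes past the threshold or else the 2 with the smallest p. Genes of the further family list were also named by level, as were genes that overlap a member. Casp9, Apaf1, Xiap, Trp53 and Mdm2 were named outside this rule, besides Ripk1, Trp73 and Birc5. Some items that the rule names are not reported here. The members and lists were chosen with earlier results of these data known.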

Additional observations from a re-analysis of the deposited data

Results flagged for a closer look

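In 54 groups of 4 libraries examined, 1 value stood apart from the other 3 by more than the Dixon limit. Hoxb2 in wild type 6 was at 46.6 CPM, against 37.4 to 38.9 CPM in the other wild type libraries. Chance alone sets apart a value in about 1 in 20 groups. No member of the Bcl2 family was set apart in this way.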

How the results depend on the processing

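No member passed under any of the 18 alternatives, whose lowest adjusted p for a member was 0.11, for Hrk without mutant 1. Of 180 member values, 177 kept their sign, and 3 turned, all without mutant 3. With single libraries left out, log2 fold changes ran from -0.30 to 0.030 for Bak1, -0.037 to 0.19 for Bid and -0.34 to 0.024 for Bcl2l11, and from -0.31 to 0.045 for the antisense gene D630008O14Rik. The number of genes past the threshold, 70 over all genes, was 26 to 544 with single libraries left out, 214 with no low-count filter, 497 with DESeq2, 233 with limma-voom with quality weights and 171 once mutant 1 and wild types 5 and 6 were all left out, which was chosen after seeing the data. The cause was not tested. Members whose groups did not overlap numbered 0 to 2 with single libraries left out (Bcl2 and Hrk without wild type 5, 7.38% of tested genes) and 3 without those 3 libraries together (Bcl2, Bbc3 and Hrk, against 27.6% of tested genes). The p53 list had 1 call with DESeq2 and 0 to 1 with single libraries left out, Perp in each case. The difference in log2 survival to effector ratio lay between -0.43 and -0.16 with single libraries left out. Other scalings moved the median of all genes by at most 0.06 on the log2 scale. No paired analysis was possible because the column headings carry no replicate number. A member had at least 143 counts a library, and counting error and spread between libraries were not separated.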

Other observations

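Birc5, which encodes the mitotic and caspase-inhibiting protein Survivin and was picked out after its values were seen, followed the cycling-cell markers from library to library. It was at 34.4 and 36.1 CPM in wild type 5 and 6 and 26.5 CPM in mutant 1, the 3 libraries with the highest summed level of those markers. In the other 5 libraries it lay between 8.29 and 15.6 CPM. Its log2 fold change between the groups was -0.58 (SE 0.482, edgeR adjusted p = 0.644).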
